A study of Mus musculus with 2 samples.

Results

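Myeloid cells, that is macrophages, dendritic cells and neutrophils, sense their surroundings through families of surface receptors: lectins that bind sugars, Fc receptors that bind antibodies, and pattern receptors that bind microbial products. The genes studied here carry symbols of those families (Clec, Cd209, Siglec, Fcgr, Fcer, Lilr, Pira, Pirb, Cd300, Tlr, Nlrp, Adgre and Ms4a without Ms4a1 and Ms4a2), together with Mrc1, Cd163, Msr1, Marco, Csf1r, Cd14, Retnla, Lyz1, Lyz2 and Camp. The symbol rule found 66 of the 4183 rows in the authors' table. It is a rule on names, and 12 of the 66 genes are mostly known from other cells or from many cells, such as Clec3b (secreted by connective tissue cells), Fcgrt (the receptor that recycles IgG in many cells) and Cd300lg (of endothelium).

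The first group was dorsal skin of C57BL/6 mice aged 18 to 20 months that received red light at 8 J/cm² once a day for 28 days. The other was dorsal skin of mice of the same strain and age with no treatment. GEO describes 1 sample per group, and the table gives 1 authors' mean per group and gene, in FPKM, a read count corrected for the length of the transcript and the output of the library. The values used here carry no spread between animals, read depth or p-value, so no difference below has a replicate check. The table appears filtered by size of difference, although its criteria are not given in the sources used here: among listed genes that were lower, the smallest difference was 2.001-fold. A family gene that is not listed is therefore of unknown difference, and every member had to differ by about this much to be seen here.

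In red light skin 65 of the 66 genes were lower than in untreated skin and 1 was higher. Of all listed genes, 61.3% were lower and 38.7% higher. The median log2 ratio of red light over untreated was −1.51 for the 66 genes and −1.21 for all listed genes. Among genes that were lower at all, the median was 2.86-fold for the 65 members and 3.09-fold for the 2566 listed genes, so the members' differences were close in size to those of lower genes in general. At least 4-fold lower were 16 members, or 24.2%, against 18.9% of all listed genes and 30.7% of those that were lower. With a pseudocount of 1 FPKM, which shrinks the ratios of low genes, 40 of the 65 lower members had a log2 ratio of −1 or lower. The same held for 1515 of the 2566 lower listed genes, which is 36.2% of all listed genes, higher ones included. The authors' UP or DOWN label matched the direction of the means for all 66.

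Summed over the 66 genes, the level was 826 FPKM in red light skin and 2261 FPKM in untreated skin. Lyz2, the lysozyme of macrophages and neutrophils, made up 36.6% of that sum in red light skin and 34.9% in untreated skin. Without it the sums were 524 FPKM in red light skin and 1472 FPKM in untreated skin. In a piece of whole skin, fewer cells of a type and less RNA per cell cannot be told apart. General leukocyte genes were lower beside them: 16 of 16 listed (of 16 in the list), with a median of 2.59-fold. Their summed level was 175 FPKM in red light skin against 449 FPKM in untreated skin. Every gene of this list is thus in the table, and lists were chosen with earlier results of these data known. The count is therefore no independent check. The part of general leukocyte genes in the members' difference was not tested.

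**Figure D1:**
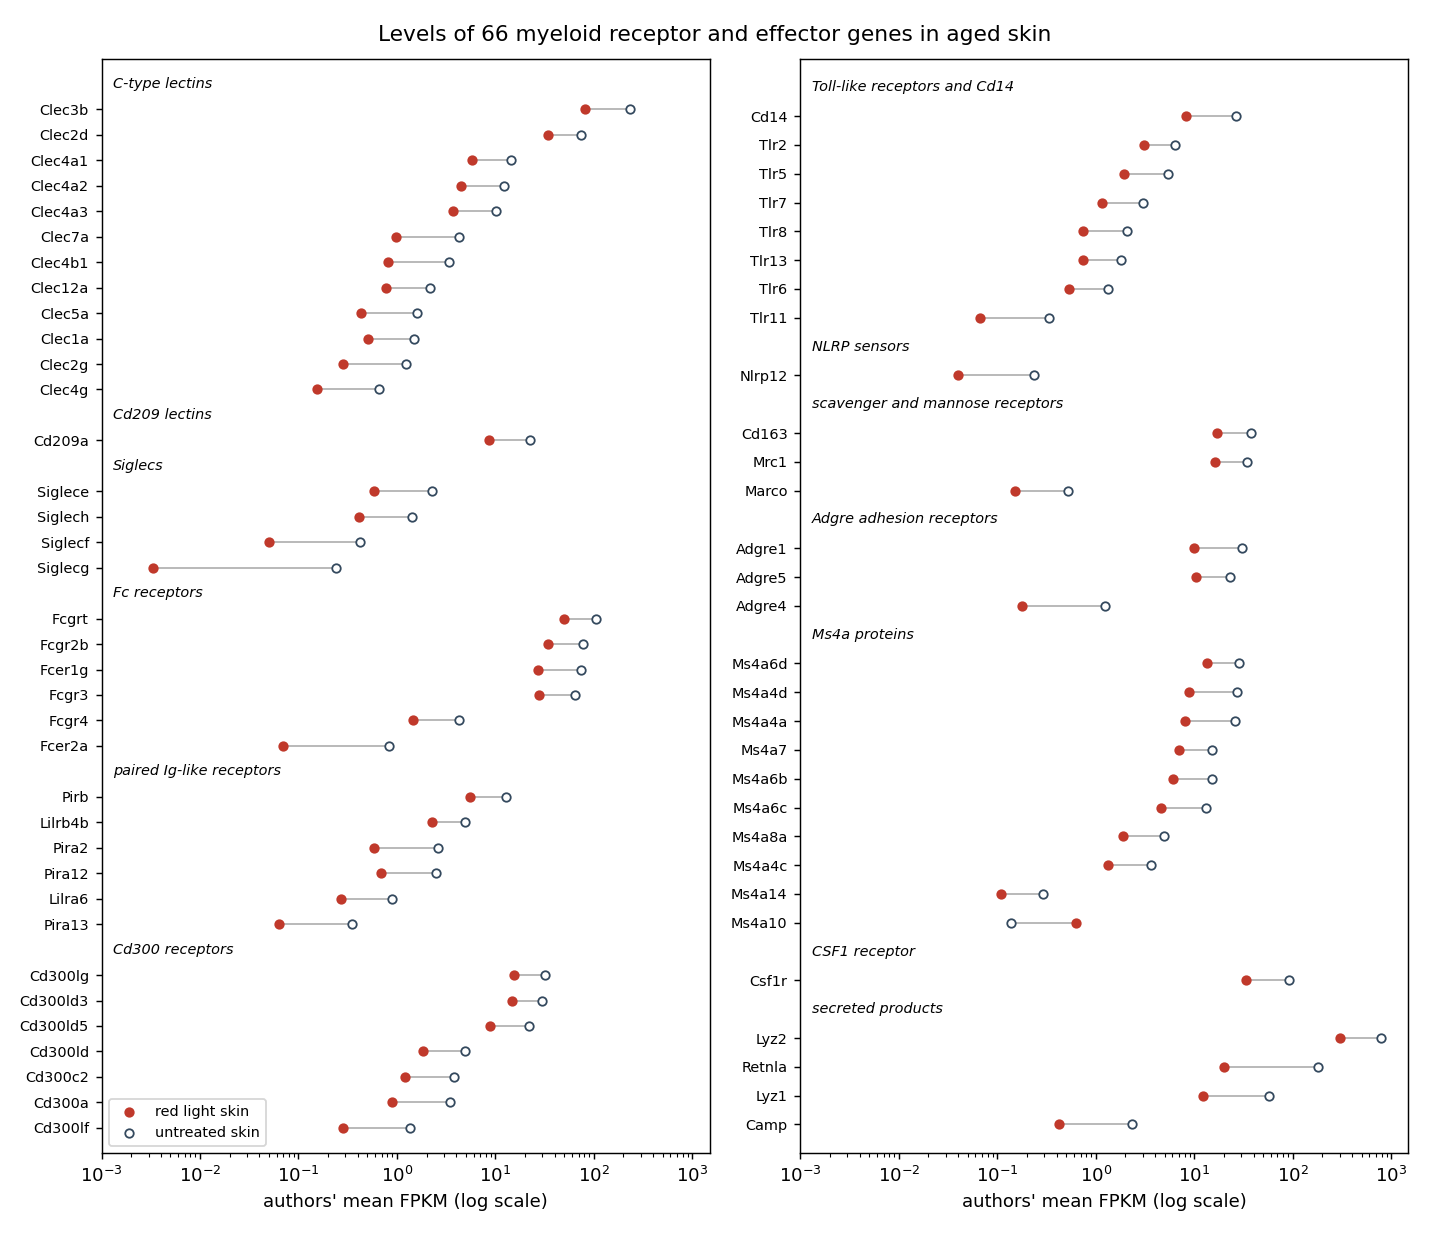
Authors' mean FPKM (log axis) of the 66 genes in red light skin (filled points) and untreated skin (open points), grouped by family and joined by a line per gene. Every filled point lies left of its open point except that of Ms4a10, at 0.633 FPKM in red light skin and 0.137 FPKM in untreated skin.

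Secreted products held the largest difference among abundant members. Retnla, a resistin-like protein that macrophages make in response to interleukin-4 and interleukin-13, stood at 19.96 FPKM in red light skin, against 179.96 FPKM in untreated skin, and was 9.02-fold lower. That difference exceeded those of 95.8% of all listed genes that were lower. Which cells of the skin made Retnla cannot be read from whole tissue. Lyz2 stood at 302 FPKM in red light skin and 789 FPKM in untreated skin, 2.61-fold lower. Lyz1, a lysozyme that Paneth cells of the gut also make, stood at 12.2 FPKM in red light skin and 57.3 FPKM in untreated skin, 4.70-fold lower. The neighbouring lysozyme genes thus differed unequally, and there were 24.8 FPKM of Lyz2 per FPKM of Lyz1 in red light skin against 13.8 in untreated skin. Of their 50-base transcript windows, 16.1% of those of Lyz1 and 15.4% of those of Lyz2 occur in the other gene, so the split of reads between them is uncertain. Camp, the cathelicidin peptide stored in neutrophil granules, was 5.52-fold lower, at 0.427 FPKM in red light skin and 2.35 FPKM in untreated skin.

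The stretches before the starts of these 3 genes are shown because Lyz1 and Lyz2 are near copies with unequal differences and Retnla had the largest difference of any member above 10 FPKM. They are the 250 bases before each RefSeq start in build GRCm38.p6, read 5′ to 3′ on the gene's strand. Capitals mark AGGAAGT or its reverse complement ACTTCCT, a form of the sequence that ETS factors such as the myeloid factor PU.1 bind.
Retnla, chr16:48842359-48842608, plus strand: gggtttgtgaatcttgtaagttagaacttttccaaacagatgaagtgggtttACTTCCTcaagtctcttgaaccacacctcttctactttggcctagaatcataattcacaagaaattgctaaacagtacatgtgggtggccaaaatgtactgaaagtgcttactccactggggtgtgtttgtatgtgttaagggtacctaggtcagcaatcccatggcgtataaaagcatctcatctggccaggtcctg
Lyz1, chr10:117292869-117293118, minus strand: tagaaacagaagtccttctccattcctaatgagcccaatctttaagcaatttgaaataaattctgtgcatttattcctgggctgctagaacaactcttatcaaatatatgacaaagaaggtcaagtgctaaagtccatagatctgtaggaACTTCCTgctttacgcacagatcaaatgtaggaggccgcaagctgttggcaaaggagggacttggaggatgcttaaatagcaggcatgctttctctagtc
Lyz2, chr10:117282273-117282522, minus strand: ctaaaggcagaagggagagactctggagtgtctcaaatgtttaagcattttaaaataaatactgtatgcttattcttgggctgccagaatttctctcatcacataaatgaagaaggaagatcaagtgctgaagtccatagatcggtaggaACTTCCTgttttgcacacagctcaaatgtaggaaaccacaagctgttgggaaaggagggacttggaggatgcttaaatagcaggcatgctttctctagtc

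The Lyz1 and Lyz2 stretches were identical at 92 of the last 100 bases and at 60 of the first 150, compared position by position without gaps. In part of the first 150 bases, alike sequence lies shifted between the 2 genes, so that count understates their likeness. In both the capitals begin 100 bases before the start, and in Retnla 198 bases before it. RefSeq promoters were matched by symbol for 54 of the 66 genes. The AGGAAGT letters, on either strand, stood in the 250 bases of 16 of these 54 genes (29.6%), of 11.7% of the 1907 matched genes that were lower and of 8.80% of all 27025 genes with a promoter entry. The letters were picked after the 3 stretches had been seen, and without those genes the count was 13 of 51 (25.5%). Some holders share much of their transcript sequence with family members (Pira2, Pirb and Lilra6, or Cd300ld3 and Cd300ld5) and are not separate observations. For comparison, TTGCNNAA, a form bound by C/EBP factors, stood in 22.2% of members, 14.6% of lower genes and 10.8% of all, and TATAAA in 18.5%, 13.7% and 14.3%. None of the 3 motifs contains another, on either strand.

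Fc receptors link antibodies to myeloid cells. All 6 listed members were lower, with a median of 2.51-fold. Among the receptors for IgG, the inhibitory Fcgr2b stood at 34.0 FPKM in red light skin and 77.2 FPKM in untreated skin, 2.27-fold lower. The activating Fcgr3 was 2.32-fold lower, at 27.4 FPKM in red light skin and 63.7 FPKM in untreated skin. Fcgr4, also activating, was 2.97-fold lower, at 1.45 FPKM in red light skin and 4.31 FPKM in untreated skin. Summed activating levels and the inhibitory level thus differed almost in step. Fcgr3 and Fcgr4 together, mostly Fcgr3, came to 0.850 times the level of Fcgr2b in red light skin and 0.882 times in untreated skin. Of the 50-base windows of Fcgr3, 9.58% also occur in Fcgr2b, so the split of reads between these genes is uncertain. Fcer1g, the signalling chain that activating Fc receptors share with several lectins, was 2.71-fold lower, at 27.1 FPKM in red light skin and 73.5 FPKM in untreated skin. Fcgrt was 2.12-fold lower, with 49.8 FPKM in red light skin and 105.6 FPKM in untreated skin. Fcer2a, the low-affinity IgE receptor of B cells, was 11.9-fold lower, but at 0.070 FPKM in red light skin and 0.830 FPKM in untreated skin. Fcgr1 was not listed.

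C-type lectins bind sugars and other ligands through a shared fold. The 12 listed members, of 33 coding Clec symbols in RefSeq, were all lower, with a median of 2.89-fold. The highest levels belonged to genes of other cells. Clec3b (tetranectin) stood at 81.0 FPKM in red light skin and 232 FPKM in untreated skin, and Clec2d, a ligand of natural killer cell receptors, at 33.8 FPKM in red light skin and 73.2 FPKM in untreated skin. The dendritic cell immunoreceptor genes Clec4a1, Clec4a2 and Clec4a3 lay close together, 2.49-fold, 2.77-fold and 2.73-fold lower. Their levels in red light skin were 5.83, 4.43 and 3.69 FPKM, against 14.5, 12.2 and 10.1 FPKM in untreated skin. Clec7a (dectin-1), the receptor for fungal beta-glucan, was 4.34-fold lower, at 0.983 FPKM in red light skin and 4.26 FPKM in untreated skin. Clec4b1, an activating relative of the Clec4a genes in mouse, was 4.23-fold lower, with 0.803 FPKM in red light skin and 3.40 FPKM in untreated skin. Clec5a, which signals through the adaptor DAP12, was 3.63-fold lower and the inhibitory Clec12a 2.86-fold lower. Clec2g, Clec4g and Clec1a, all under 1.5 FPKM in both groups, were 4.39-fold, 4.33-fold and 2.91-fold lower. Cd209a, a mouse relative of human DC-SIGN, was 2.62-fold lower, at 8.57 FPKM in red light skin and 22.5 FPKM in untreated skin. It was the only listed gene of 7 coding Cd209 symbols.

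Siglecs bind sialic acid on other cells and mostly dampen activation. The 4 listed genes had the lowest median of the families with at least 3 listed genes, at 5.70-fold, but the highest level among them was 2.26 FPKM. Siglecg, found on B cells and some dendritic cells, stood at 0.0033 FPKM in red light skin, the smallest mean above 0 in the table, and at 0.240 FPKM in untreated skin. Its 72-fold difference was reduced to a log2 ratio of −0.31 with a pseudocount of 1, in place of −6.17. Siglecf, of eosinophils and alveolar macrophages, was 8.47-fold lower, at 0.050 FPKM in red light skin and 0.423 FPKM in untreated skin. Siglece, of neutrophils and macrophages, was 3.84-fold lower, at 0.590 FPKM after red light and 2.26 FPKM without it. Siglech, of plasmacytoid dendritic cells, was 3.49-fold lower, at 0.410 FPKM in red light skin and 1.43 FPKM in untreated skin.

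Paired Ig-like receptors come as activating and inhibitory forms that bind MHC class I molecules. All 6 listed were lower, with a median of 3.47-fold. The inhibitory Pirb was 2.35-fold lower, at 5.48 FPKM in red light skin and 12.9 FPKM in untreated skin. The activating Pira2, Pira12 and Pira13 were 4.45-fold, 3.65-fold and 5.47-fold lower. Together they came to 0.245 times the level of Pirb in red light skin, against 0.427 times in untreated skin. This split is uncertain, since 93.0% of the 50-base windows of Pira2 transcripts and 34.0% of those of Pirb also occur in transcripts of other genes, and Pira12 and Pira13 could not be matched to a transcript. Lilra6, with 31.3% of its windows shared, was 3.30-fold lower, and Lilrb4b was 2.13-fold lower.

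Cd300 receptors recognise lipids on dying cells and microbes. All 7 listed genes were lower, with a median of 2.66-fold. The inhibitory Cd300lf and Cd300a were 4.76-fold and 3.90-fold lower, at 0.287 and 0.897 FPKM in red light skin against 1.36 and 3.50 FPKM in untreated skin. Cd300c2 was 3.18-fold and Cd300ld 2.66-fold lower. The endothelial Cd300lg stood at 15.5 FPKM in red light skin and 31.7 FPKM in untreated skin, and its 2.05-fold difference was the smallest of any member. Cd300ld3 and Cd300ld5 were also lower, at 14.6 and 8.85 FPKM in red light skin against 30.1 and 22.2 FPKM in untreated skin, but 82.1% and 100% of their 50-base windows are shared with other genes, so the reads given to each are uncertain.

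Across these families, a set of 11 receptors and chains that signal through activating ITAM motifs had a median of 3.63-fold lower, and 9 receptors with inhibitory ITIM motifs one of 3.84-fold lower. Both sets were drawn up after the values were seen. Their summed levels were 61.8 FPKM and 46.5 FPKM in red light skin, against 162.6 FPKM and 112.3 FPKM in untreated skin. By these sums the ITAM set differed slightly more than the ITIM set, the reverse of the medians. Most of the ITAM sum came from Fcgr3 and Fcer1g, at 27.4 and 27.1 FPKM in red light skin. Most of the ITIM sum came from Fcgr2b, at 34.0 FPKM there. The sums therefore largely repeat the comparison of those Fc receptor genes, and the Pira genes of the ITAM set have the uncertain reads described above. Under 1 FPKM in both groups were 1 gene of the ITAM set and 2 of the ITIM set.

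**Figure D2:**
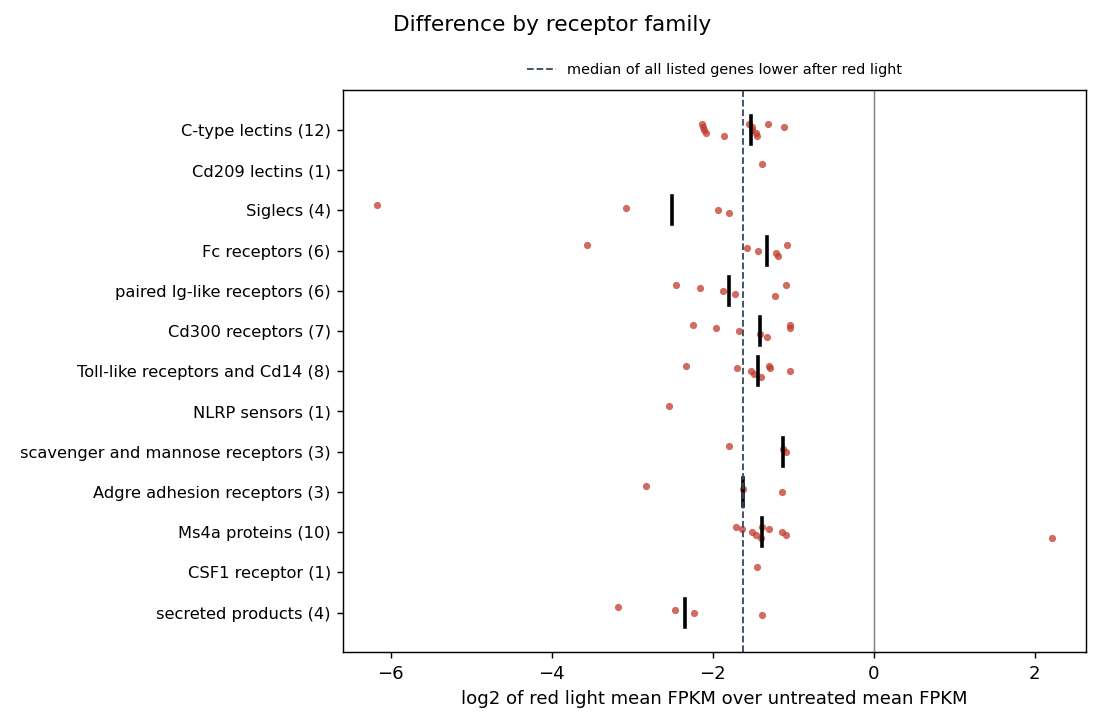
Log2 ratio of red light over untreated mean FPKM for each of the 66 genes (points) by family, with the family median as a bar where at least 3 genes are listed and the number of genes in brackets. The dashed line is the median of all listed genes lower after red light, −1.63, and the family medians lie between −2.51 for Siglecs and −1.13 for scavenger and mannose receptors.

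Toll-like receptors start the inflammatory response to microbial products. The 7 listed receptors and Cd14 were all lower, with a median of 2.71-fold. Cd14, the co-receptor that hands lipopolysaccharide to Tlr4, was 3.25-fold lower, at 8.18 FPKM in red light skin and 26.5 FPKM in untreated skin. Tlr2, for bacterial lipoproteins, was 2.06-fold lower, at 3.09 FPKM in red light skin and 6.36 FPKM in untreated skin, and its partner Tlr6 was 2.47-fold lower. The flagellin receptor Tlr5 was 2.86-fold lower, with 1.91 FPKM in red light skin and 5.48 FPKM in untreated skin. The endosomal sensors of RNA, Tlr7, Tlr8 and Tlr13, lay close together at 2.64-fold, 2.79-fold and 2.44-fold lower, and none exceeded 3.03 FPKM. Tlr11, which in mouse senses a protein of Toxoplasma, was 5.05-fold lower, at 0.067 FPKM in red light skin and 0.337 FPKM in untreated skin. Tlr4 was not listed. Of 18 coding Nlrp symbols only Nlrp12 was listed, 5.83-fold lower at 0.040 FPKM in red light skin and 0.233 FPKM in untreated skin.

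Scavenger and mannose receptors, by which resident macrophages clear debris, were lower in 3 of 3 listed cases, with a median of 2.19-fold. The mannose receptor Mrc1 was 2.12-fold lower, at 16.4 FPKM in red light skin and 34.7 FPKM in untreated skin. Cd163, the haemoglobin-haptoglobin receptor, was 2.19-fold lower, at 17.1 FPKM in red light skin and 37.5 FPKM in untreated skin. Marco, which binds bacteria, was 3.49-fold lower, at 0.150 FPKM in red light skin and 0.523 FPKM in untreated skin. Msr1 was not listed. Csf1r, the receptor for the growth factor on which macrophages depend, stood at 33.8 FPKM in red light skin and 92.2 FPKM in untreated skin, 2.72-fold lower. Among the adhesion receptors, Adgre1 (the macrophage antigen F4/80) was 3.09-fold lower, at 9.90 FPKM after red light and 30.6 FPKM without it. Adgre5 (CD97), of many leukocytes, was lower as well, at 10.4 FPKM in red light skin and 22.9 FPKM in untreated skin, and Adgre4 was 7.08-fold lower at 0.177 FPKM in red light skin and 1.25 FPKM in untreated skin.

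Ms4a genes encode membrane proteins with 4 membrane spans in the family of the B cell protein CD20. Of 10 listed, 9 were lower, between 2.14-fold for Ms4a6d and 3.27-fold for Ms4a4a. The low end of that range is bounded by the listing, and the median of all lower listed genes was 3.09-fold. Ms4a6d stood at 13.4 FPKM in red light skin and 28.7 FPKM in untreated skin, and Ms4a4a at 7.99 FPKM in red light skin and 26.1 FPKM in untreated skin. The macrophage gene Ms4a7 was 2.21-fold lower, Ms4a6b 2.46-fold, Ms4a8a 2.61-fold, Ms4a14 2.64-fold, Ms4a4c 2.75-fold, Ms4a6c 2.85-fold and Ms4a4d 3.11-fold. Ms4a10, best known from the intestine, was the exception at 4.63-fold higher, with 0.633 FPKM in red light skin and 0.137 FPKM in untreated skin.

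Families of this kind lie in gene clusters. In the RefSeq order of coding genes, 29 members stood in 12 unbroken runs of listed members. The rule selects such families by name, so neighbouring members are in part built in. No such count over all listed genes is given here. The longest held Ms4a14, Ms4a7, Ms4a4a and Ms4a4c, with log2 ratios between −1.71 and −1.14. The run Fcgr2b, Fcgr4 and Fcgr3 spanned −1.57 to −1.18, and that of Fcer2a, Clec4g and Cd209a, which are known from different cells, −3.57 to −1.39.

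Low members differed most, as did low genes in general. The 16 lower members with a mean of both groups under 1 FPKM had a median of 4.57-fold lower, against 4.05-fold for 573 such listed genes. From 1 to 10 FPKM the medians were 2.85-fold for 24 members and 2.90-fold for 1205 genes. At 10 FPKM and over they were 2.49-fold for 25 members and 2.85-fold for 788 genes. In that top band 2 of the 25 members (8%), Retnla and Lyz1, were at least 4-fold lower, against 203 of the 788 genes (25.8%).

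**Figure D3:**
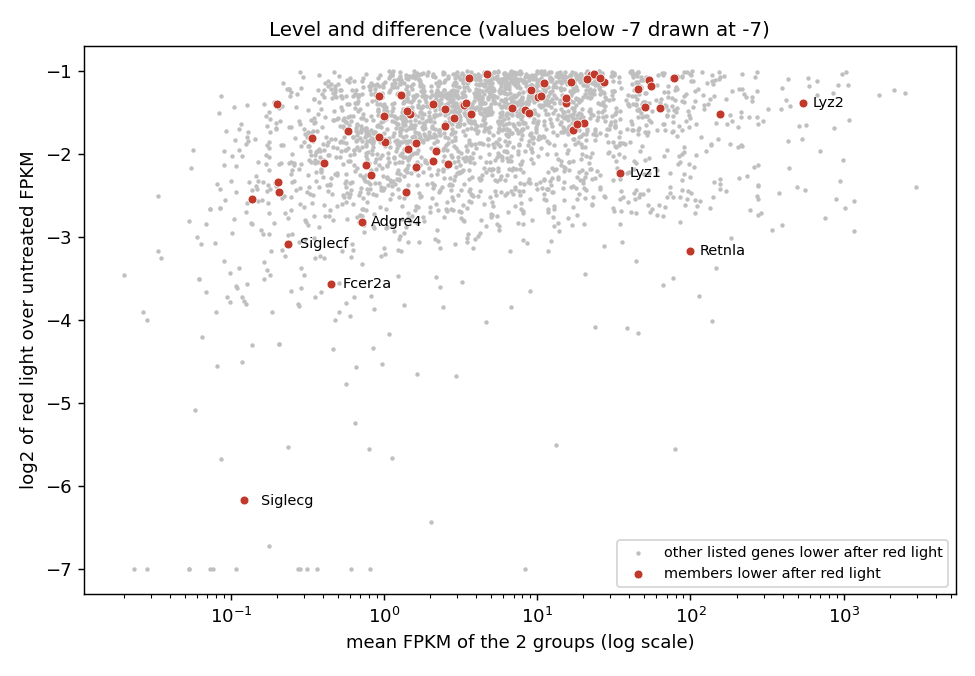
Mean FPKM of the groups (log axis) against the log2 ratio of red light over untreated, for the 65 lower members (red) and the other listed genes that were lower (grey). Retnla and Lyz1 lie below the other members above 10 FPKM, while Siglecg, Fcer2a, Siglecf and Adgre4 lie low on the axis of level.

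Dividing a member by Csf1r in the same group gives a quotient that a rescaling of all values of a group leaves unchanged. Lyz2 stood at 8.93 per unit of Csf1r in red light skin and 8.56 in untreated skin, and Cd163 at 0.507 in red light skin and 0.407 in untreated skin. Retnla stood at 0.590 per unit of Csf1r in red light skin, against 1.95 in untreated skin, 0.302 times as much. Retnla was not alone in this. Lyz1, Camp, Clec7a and other members were also lower per unit of Csf1r, and Fcer2a and Siglecg, at low levels, by a larger factor. Others, such as Mrc1, were higher. Since Csf1r is itself 2.72-fold lower and listed genes differed by about 2-fold or more, no lower gene could gain much on it. Csf1r was chosen for this comparison after its values were known.

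Marker lists for the cell types gave the following contrast. Macrophage markers were lower in 26 of 26 listed genes (of 37 in the list), with a median log2 ratio of −1.45. Dendritic and Langerhans cell markers were lower in 15 of 16 (of 30), with a median of −1.75, and neutrophil markers in 8 of 9 (of 32), with a median of −2.08. The median of all lower listed genes was −1.63, between them. Rule genes make up 9, 2 and 1 of the genes in these counts, and without them the medians were −1.44, −1.76 and −1.98. With a pseudocount of 1 FPKM the macrophage, dendritic and neutrophil medians were −1.32, −1.03 and −1.06, so their order depends on that setting.

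Among macrophage markers outside the rule, Tgfbi, a matrix protein that macrophages and other cells secrete, stood at 49.4 FPKM in red light skin and 263.9 FPKM in untreated skin, 5.34-fold lower. Among dendritic markers, the invariant chain Cd74 was 5.26-fold lower, at 159.2 FPKM in red light skin and 838 FPKM in untreated skin. The cytokine receptor Flt3 was 5.40-fold, the lectin Mgl2 4.97-fold and the tethering protein Bst2 3.72-fold lower. Fscn1, an actin-bundling protein of mature dendritic cells and of other motile cells, was 3.49-fold higher, at 37.1 FPKM in red light skin against 10.6 FPKM in untreated skin. Among neutrophil markers, the decoy receptor Il1r2 stood at 19.5 FPKM in red light skin and 82.3 FPKM in untreated skin, and Mmp9 was 4.55-fold lower. Camp, also on that list, reached only 2.35 FPKM in untreated skin. Which cells of the skin made Il1r2 and Mmp9 was not tested. Padi4, which forms citrulline in histones, was 10.2-fold higher, at 35.8 FPKM in red light skin and 3.51 FPKM in untreated skin. The neutrophil genes S100a8, S100a9 and Ly6g were not listed.

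Genes linked to alternative activation of macrophages, a state of which Retnla is a marker, were lower in 7 of 8 listed cases (of 16). Their median log2 ratio was −2.07. Of the 8 listed, 4 are rule genes. Ccl24 was 4.07-fold lower, at 12.4 FPKM in red light skin and 50.4 FPKM in untreated skin. Mgl2 is named above, and Chil4, a chitinase-like protein, was listed at 0 in red light skin and at 0.547 FPKM in untreated skin. Arg1, an arginase that many other tissues also make, was 2.02-fold higher, at 39.4 FPKM in red light skin and 19.5 FPKM in untreated skin.

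**Figure D4:**
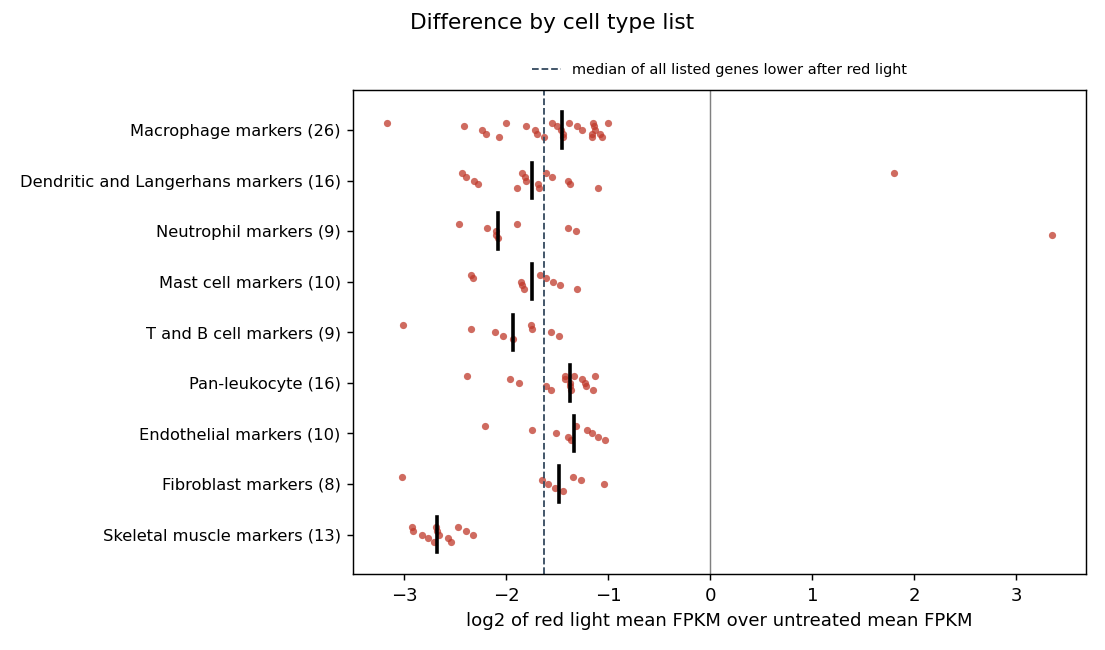
Log2 ratio of red light over untreated mean FPKM for the listed genes of 9 cell type lists (points), with each list's median as a bar and its number of listed genes in brackets. The dashed line is the median of all listed genes lower after red light, −1.63. The neutrophil list has the lowest median of the myeloid lists at −2.08, and the single points on the right are Fscn1 and Padi4.

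Signalling partners of the receptors were lower as well. In the list of ITAM adaptors and kinases 15 of 15 listed genes (of 28) were lower, with a median of 2.69-fold. Tyrobp (DAP12), the adaptor of Clec5a and Siglech, stood at 37.1 FPKM in red light skin and 99.1 FPKM in untreated skin, 2.67-fold lower. The inhibitory phosphatase Inpp5d was 2.91-fold lower. The signal-regulatory genes Sirpb1a, Sirpb1b and Sirpb1c were 3.57-fold, 4.39-fold and 3.12-fold lower.

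The list of Toll-like receptor signalling had 6 of 6 listed genes (of 32) lower, with a median of 3.29-fold. The feedback inhibitors of NF-kappaB Nfkbia and Tnfaip3 were 3.33-fold and 3.53-fold lower, and Nfkbiz was 3.44-fold lower. Nfkbia stood at 35.3 FPKM in red light skin and 117.3 FPKM in untreated skin. Unc93b1, which carries endosomal Toll-like receptors to their place, was 2.30-fold lower.

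Inflammasome genes were lower in 8 of 9 listed cases (of 17), with a median of 2.85-fold. Il1b, the cytokine that inflammasomes activate, stood at 5.79 FPKM in red light skin and 26.5 FPKM in untreated skin, 4.59-fold lower. The DNA sensor Aim2 was 3.88-fold lower and the pore former Gsdmd 2.85-fold lower. Naip1, a sensor of bacterial secretion systems, was 8.90-fold higher, at 0.297 FPKM in red light skin and 0.033 FPKM in untreated skin.

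Growth factor and transcription factor genes of the myeloid line were lower in 12 of 13 listed cases (of 24), with a median of 2.48-fold. Irf4 was 4.11-fold, Cebpd 3.26-fold and Klf4 2.66-fold lower. Klf4, also a factor of the upper epidermis, stood at 66.6 FPKM in red light skin and 177.2 FPKM in untreated skin. Runx1, which hair follicle cells also express, was 2.52-fold higher, at 13.03 FPKM in red light skin and 5.17 FPKM in untreated skin.

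Genes of other cell types differed beside the members. Mast cell markers were lower in 10 of 10 listed genes (of 14), with a summed level of 114.9 FPKM in red light skin and 342 FPKM in untreated skin. T and B cell markers were lower in 9 of 9 (of 14), at 7.73 FPKM in red light skin and 28.7 FPKM in untreated skin. Endothelial markers were lower in 10 of 10 (of 13), at 113.4 FPKM in red light skin and 299.9 FPKM in untreated skin. Fibroblast markers were lower in 8 of 8 (of 12), at 1077 FPKM in red light skin and 3178 FPKM in untreated skin. Skeletal muscle markers were lower in 13 of 13 (of 13), at 2969 FPKM in red light skin and 17577 FPKM in untreated skin. Their median was 6.41-fold, and every gene of that list is in the table. Hair keratin, keratin-associated and trichohyalin genes went the other way in 73 of 73, at 64269 FPKM in red light skin and 207 FPKM in untreated skin, which made up 38.5% of the listed sum in red light skin and 0.163% in untreated skin. No listed gene of the marker lists was at 0 in either group, apart from Chil4. The part of these cells and of the hair transcripts in the members' differences was not tested.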

How the data were processed

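Dorsal skin RNA was measured by sequencing of polyadenylated RNA, per the labels' protocols, in 2 groups of 1 GEO sample each. The authors deposited mean FPKM per group, per the file headers, with an UP or DOWN label. Tools named, with no role, in the submitters' processing notes are RSEM, DESeq2 1.40.2 in R 4.3.1, and Bowtie2 2.2.8. The aligner's settings, the genome build, the number of libraries behind a mean and the listing criteria are not given in the sources used here. FPKM is a relative scale, so a value depends on the other transcripts in the library, and depth is unknown.

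Here members were found by symbol. Ratios are red light over untreated means without a pseudocount, and no test was possible. Members and lists were chosen with earlier results of these data known. Every member may be named. From the myeloid and signalling lists came the 3 largest ratios, the 2 highest levels and each gene against its list's direction, while lists of other cells are given as counts and sums. Alternatives were pseudocounts, an FPKM minimum, a stricter ratio, equal-sum scalings and narrower sets. The ratio code returned the ratios set in simulated data without noise, which checks its arithmetic only. RefSeq (GRCm38.p6) gave coding symbols, for 63 members, and promoters. Its coordinates belong to that build. GENCODE M21 transcripts gave shared 50-base windows for 63 members. Python 3.11.15, numpy 2.4.6, pandas 2.3.3 and matplotlib 3.10.9 were used.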

Additional observations from a re-analysis of the deposited data

How the results depend on the processing

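Direction did not change for any member, any median of a family with at least 3 listed genes or any list median under the alternatives run for it, though a pseudocount or a common factor of this size could hardly reverse ratios beyond 2-fold. Scaling red light values so that listed genes without hair genes had equal sums (a shift of 0.30 on the log2 scale), or all listed genes (−0.39), left 65 members lower. Both shifts are smaller than 1.5-fold, so neither could move a median by that much. Of 65 lower members, 16 had a log2 ratio of −2 or lower, fewer by construction, and 40 kept −1 or lower with a pseudocount of 1. Of the 2566 lower listed genes 1515 did so, or 36.2% of all listed genes, higher ones included. That pseudocount moved the medians of Siglecs (−0.61), paired Ig-like receptors (−0.95), Toll-like receptors with Cd14 (−0.83), secreted products (−1.76), dendritic (−1.03), neutrophil (−1.06), inflammasome (−0.66), alternative activation (−1.25) and T and B cell genes (−1.01), and 28 of 66 single members. A pseudocount of 0.1 moved the Siglec median (−1.75) and 6 single members, and a minimum of 1 FPKM moved the Siglec median (−1.87). The alternatives for the lists of alternative activation, leukocytes and other cells were chosen after seeing the data. No paired analysis was possible because the table holds only a mean for each group, and leaving out replicates could not be run for the same reason. Depth is unknown, so counting error in the 11 members under 1 FPKM in both groups cannot be given.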
